A study of Rattus norvegicus with 24 samples.

Results

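ENSRNOG00000018414 is 1 of 32883 Ensembl gene IDs in the deposited tables. It was chosen by its treatment difference: averaged over the titled sexes, it had the smallest p of the 14930 genes tested between oxytocin and saline. Its treatment differences are therefore given as a description, with no test. The tables carry no gene names, and 0 of the 32883 IDs matched the 47357 rows of the rat reference table used here (assembly GRCr8). The ID is accordingly used as it stands, without name, position or sequence, and no statement on function is made for it. For the same reason, markers of the cortex and its cell types could not be checked.

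RNA was measured in the medial prefrontal cortex of both hemispheres, from Sprague Dawley rats at postnatal day 45 born after induction with oxytocin, or after saline as the control. The sample titles give 4 groups of 6 libraries: saline males, oxytocin males, saline females and oxytocin females. For 24 of 24 libraries the file name states the opposite treatment and the opposite sex. Groups below follow the titles, and the reading by file names is given beside the levels and differences of ENSRNOG00000018414. By file name, every other difference between treatments or between sexes below would also turn its sign. The medial prefrontal cortex is a frontal area involved in executive control and social behaviour. Oxytocin is a peptide hormone that drives uterine contraction and also acts as a signal between neurons. The labels name no litter, so p-values measure the spread between these libraries, some of which may share a dam. Every value comes from bulk tissue, in which fewer cells of a type and less RNA per cell cannot be told apart.

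The libraries held 15.9 to 24.3 M estimated reads. In titled females the oxytocin libraries were shallower, at 17.4 ± 0.888 against 20.2 ± 2.18 M (SD, n = 6 each). A two-sided exact permutation test gave p = 0.00433, or 0.00866 adjusted for both sexes. In titled males they held 19.5 ± 2.31 and 19.8 ± 2.42 M (SD, n = 6 each), and the same test gave an exact p of 0.829.

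ENSRNOG00000018414 was a well-measured gene. It had 1056 to 2160 reads per library, all of them whole numbers before rounding. The counting error of a single library was accordingly 2.15% to 3.08%. Its mean level was 83.7 CPM (reads as a share of the library total, scaled between libraries by TMM), which was higher than that of 83.7% of the tested genes. Per length, its mean was 37.7 TPM, above 87.9% of all 32883 IDs. In single libraries its TPM ranked between 3184th and 5215th from the top.

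In titled saline males the level was 89.4 CPM in the lowest library, 96.1 at the median and 106 in the highest. In titled oxytocin males these values were 73.9, 81.4 and 89.4 CPM. In titled saline females they were 84.5, 87.0 and 98.7 CPM. The lowest values of all were in titled oxytocin females, at 60.5, 65.1 and 78.0 CPM. The group means fell in the order saline males (96.5 ± 5.24 CPM), saline females (89.9 ± 6.28), oxytocin males (81.4 ± 5.50) and oxytocin females (66.9 ± 7.21; SD, n = 6 each). Each group overlapped its neighbour in this order. By the file names the same order would read oxytocin females, oxytocin males, saline females and saline males.

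**Figure D1:**
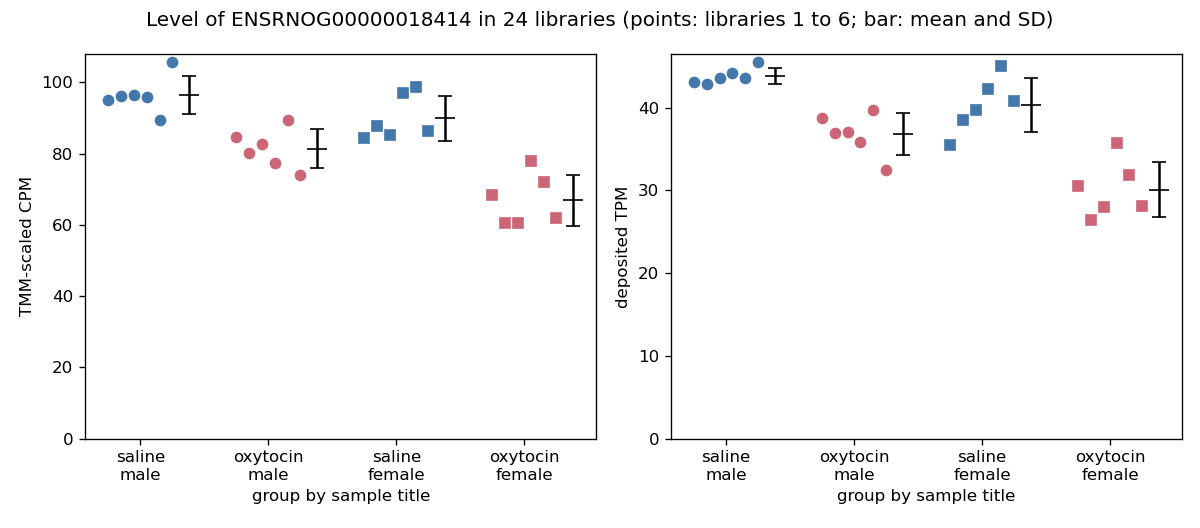
Level of ENSRNOG00000018414 in each of 24 libraries as TMM-scaled CPM (left) and as deposited TPM (right), by group of the sample titles. Points are libraries, and the bar beside each group gives its mean and SD. Titled oxytocin females sit lowest on both scales, between 60.5 and 78.0 CPM.

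All 6 titled oxytocin females lay below the lowest titled saline female, as did 0.375% of all tested genes. In titled males 5 of 6 oxytocin libraries lay below the lowest saline library, and the exception, oxytocin male 5, stood level with saline male 5 at 89.4 CPM. In titled males 0.409% of genes had every oxytocin library below every saline library, and no gene (0%) had this in both titled sexes on the CPM scale. With the sexes put together, 10 of 12 oxytocin libraries lay below the lowest of the 12 saline libraries. No gene (0%) had all 12 oxytocin below all 12 saline libraries, and none had oxytocin above saline without overlap in both titled sexes. For the counts of 5 of 6 and 10 of 12 libraries no share over all genes was computed. These counts and shares were measured in the contrast that chose the gene, and nothing is read from them.

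Which sex separated fully depended on the unit. In deposited TPM, which divides by an effective length and by the sum over all genes of a library, all 6 titled oxytocin males lay below the lowest saline male, and 5 of 6 titled oxytocin females below the lowest saline female. The share of all genes with such a separation in TPM was not computed, so nothing is read from these counts. Titled saline males were tight on this scale, at 43.8 ± 0.969 TPM (SD, n = 6), with a coefficient of variation of 2.21% against 5.43% in CPM. Titled oxytocin males stood at 36.8 ± 2.54 TPM, saline females at 40.3 ± 3.27 TPM and oxytocin females at 30.1 ± 3.38 TPM (SD, n = 6 each). The group means thus kept their order in both units.

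The differences between treatments were modest in size. In titled females oxytocin differed from saline by −0.43 on the log2 scale (SE 0.06), so that saline was 1.34 times oxytocin. In titled males the difference was −0.24 (SE 0.06), a factor of 1.18, and on average over the titled sexes −0.34 (SE 0.04), a factor of 1.26. All of these lay under the 2-fold limit that the design text of the series names. Read by the file names, oxytocin would be higher than saline by 0.43 in males, 0.24 in females and 0.34 on average. On average 4.19% of the tested genes had a larger log2 difference than ENSRNOG00000018414, and 30.9% had a smaller SE. With counts thinned to the total of the smallest library, the log2 differences were −0.43 in titled females and −0.25 in titled males.

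At the edge of the choice, the averaged contrast called 54 genes (0.362%) at an adjusted p of at most 0.05. The gene of second smallest p was ENSRNOG00000013391, which was higher in titled oxytocin by 0.25 (SE 0.04), at 358 ± 25.5 against 294 ± 20.4 CPM in males and 318 ± 13.7 against 272 ± 25.8 CPM in females (SD, n = 6 each). Next among the genes lower in titled oxytocin, seventh of all by p, was ENSRNOG00000018509, with an average difference of −0.37 (SE 0.07). Its group means ran in the same order as those of ENSRNOG00000018414, at 20.4 ± 1.18 CPM in saline males, 17.9 ± 1.79 in saline females, 17.5 ± 2.01 in oxytocin males and 12.6 ± 2.28 in oxytocin females (SD, n = 6 each).

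**Figure D2:**
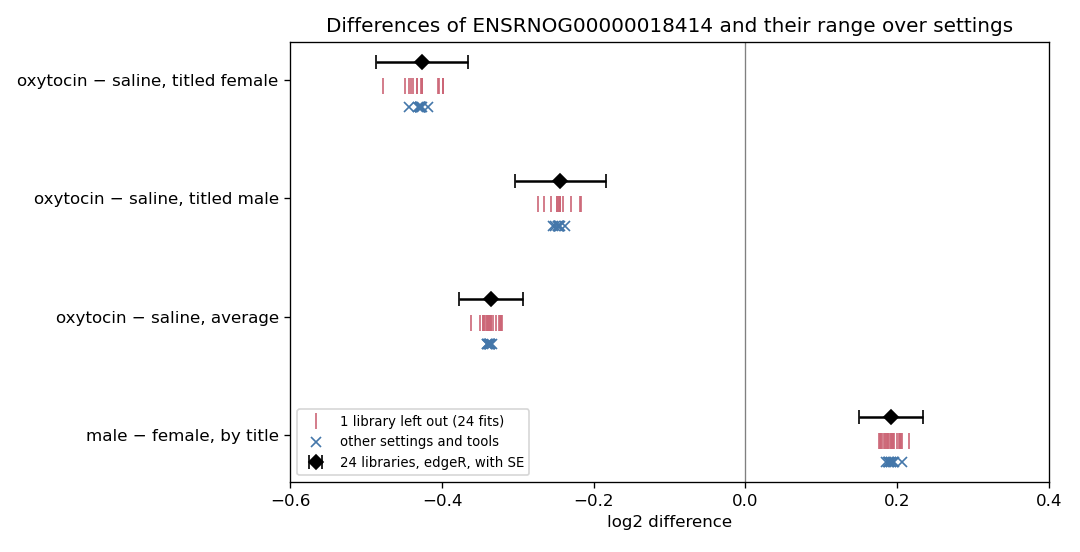
Log2 differences of ENSRNOG00000018414 between titled treatments and between titled sexes. Diamonds with bars are the edgeR estimates from 24 libraries with their SE (for titled females −0.43, SE 0.06), red ticks the fits with 1 library left out, and blue crosses the other settings and tools. No tick or cross lies on the other side of 0 from its diamond. For the treatment differences, by which the gene was picked, nothing is read from this.

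The choice of the gene did not use the difference between the titled sexes, which was therefore tested. The tests of the sex difference and of the interaction share their estimate of the spread with that choice. Their p-values are thus not fully independent of it. Averaged over treatment, the level was 0.19 higher on the log2 scale in titled males (SE 0.04), a factor of 1.14. The unadjusted edgeR p was 0.00013, which ranked 37th of the 14930 tested genes. The edgeR adjusted p over all genes was 0.0520, so the difference just missed the limit of 0.05 that 0.228% of the tested genes passed. Of 9 other settings, it passed in 3: DESeq2 (adjusted p = 0.00863), limma with sample weights (0.0251) and no filter on low counts (edgeR, 0.0462). It also passed in 6 of the 24 fits that left out 1 library, with adjusted p between 0.00782 (without oxytocin female 4) and 0.105 over all 24. Within titled saline the males were 0.10 higher (SE 0.06) and within titled oxytocin 0.28 higher (SE 0.06), with overlapping libraries in both. By the file names the females would be the higher sex. ENSRNOG00000018509 was also higher in titled males, by 0.33 on the log2 scale, and was called (edgeR adjusted p = 0.0261).

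Whether the treatment difference itself differed between the titled sexes was tested with the interaction. The difference was 0.18 closer to 0 in titled males than in titled females (SE 0.09, 95% interval 0.01 to 0.36), with an unadjusted p of 0.0425 and an edgeR adjusted p of 0.662. The interaction was called for no gene in edgeR (0%, with 1089 genes at an unadjusted p under 0.05), for 2 in DESeq2 and for 0 in limma with sample weights. A larger treatment difference in titled females was thus not shown after adjustment over all genes. Under the file names the interaction keeps its size, with the larger difference in males.

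ENSRNOG00000018414 was more variable within groups than most genes of its level. Its biological coefficient of variation, the spread left after counting error, was 7.27%. For the 900 genes within 1.2-fold of its mean CPM the median was 5.91%, and 69.3% of them had a smaller value. Within groups the coefficient of variation of its CPM was 5.43% in titled saline males, 6.75% in oxytocin males, 6.99% in saline females and 10.8% in oxytocin females. The widest deviation was that of oxytocin female 4, 0.23 above its group on the log2 scale.

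This spread was compared with 6 measures of the libraries after the 4 group means had been removed (24 libraries, permutation tests with 100000 resamples, two-sided, adjusted over the 6). The closest was the first principal component of log2 CPM, with Pearson r = −0.48 (permutation p = 0.0176, adjusted p = 0.105) and Spearman rho = −0.39 (permutation p = 0.0584, adjusted p = 0.204). Without the 2 libraries farthest from the median of that component, r was −0.42. It was −0.42 in titled males alone and −0.51 in titled females alone. Library total had r = −0.08 (permutation p = 0.703) and rho = −0.19 (permutation p = 0.365). The TMM factor (r = −0.39, permutation p = 0.0567) and the share of the most abundant gene (r = 0.34, permutation p = 0.108) had r = −0.69 and 0.75 in titled males alone and −0.16 and 0.05 in titled females alone (12 libraries each). The part of these measures in the results was not tested beyond these values.

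The tables also give a length for each gene and library, which varied for 3999 of the tested genes and was the same in every library for 10931. For ENSRNOG00000018414 it lay between 3497 and 3631 bases, a span of 3.83% of the shortest. The choice of the gene did not use this column. In titled males the length was 3551 ± 35.0 bases in oxytocin and 3533 ± 12.3 in saline, and in titled females 3577 ± 31.3 and 3565 ± 22.7 bases (SD, n = 6 each). The groups overlapped in both sexes, and exact permutation tests gave two-sided p = 0.279 and 0.489 (adjusted p = 0.489 for both). Over all genes of varying length, limma gave the averaged treatment difference in length as 0.420% (adjusted p = 0.952), and called 0 genes (0%), with 222 at an unadjusted p under 0.05. Males minus females by title, the length differed by −0.821% (limma unadjusted p = 0.0131, adjusted p = 0.689). In that comparison limma called 3 genes, or 0.075%, with 235 at an unadjusted p under 0.05. After removal of the group means, length and level had r = −0.33 (permutation p = 0.118) and rho = −0.27 (permutation p = 0.201, 24 libraries). Without the 2 libraries of farthest length, r was −0.10. It was −0.07 in titled males alone and −0.51 in titled females alone (12 libraries each).

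**Figure D3:**
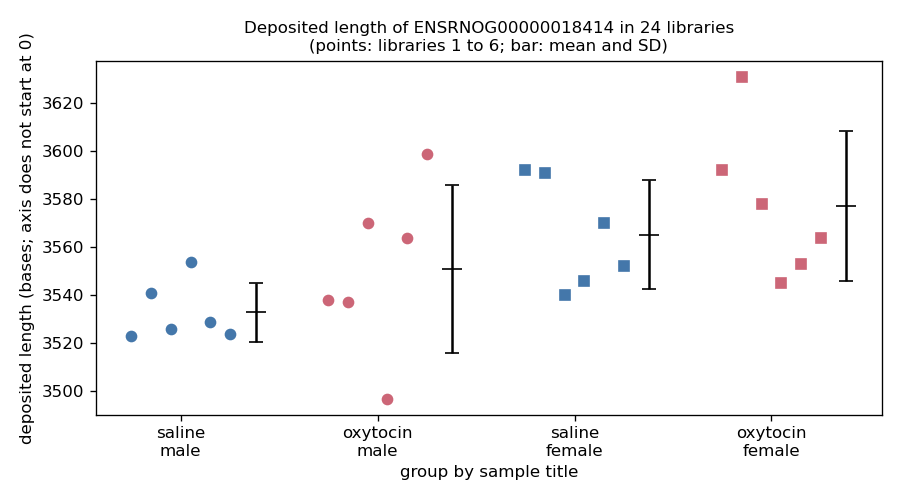
Deposited length of ENSRNOG00000018414 in bases in each library, by group of the sample titles, with the mean and SD beside each group. The axis does not start at 0. All 24 values lie between 3497 and 3631 bases, and the groups overlap.

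To find genes with a similar pattern that does not come from the groups, the residual log2 CPM after the 4 group means was correlated over the 24 libraries between ENSRNOG00000018414 and each of 11581 other genes with a mean of at least 4 CPM. Correlations ran from −0.76 to 0.76, with a median of 0.00 and an SD of 0.25. An r of at least 0.5 was reached by 162 genes (1.40%), and −0.5 or less by 210 (1.81%). In edgeR, with the residual level of ENSRNOG00000018414 as a covariate beside the group means, 0 of 14929 genes were called with a slope above 0 (0%) and 0 with a slope below 0 (0%). The smallest adjusted p was 0.449, and 1007 genes (6.75%) had an unadjusted p under 0.05. limma with sample weights also called 0, with 1018 genes at an unadjusted p under 0.05. The most similar genes below are thus the ends of a distribution, and their correlations are descriptions without a p.

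**Figure D4:**
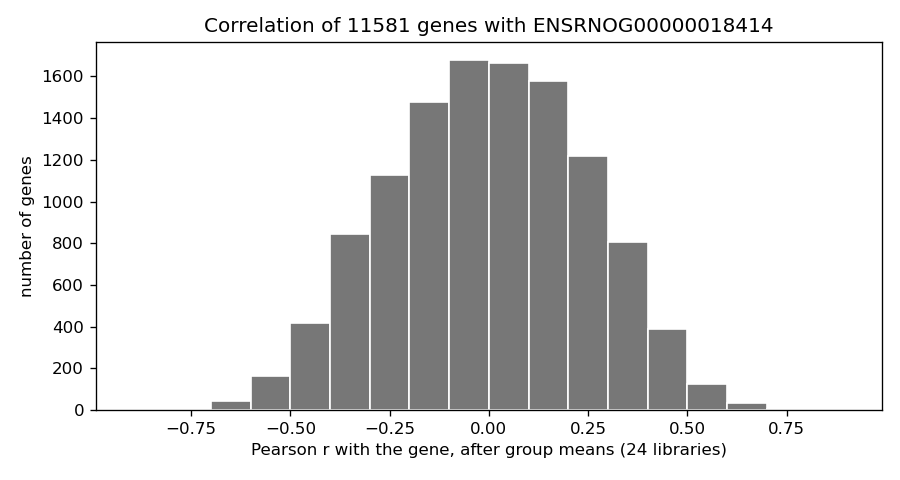
Number of genes by Pearson r with ENSRNOG00000018414 after removal of the 4 group means, over 24 libraries, for the 11581 genes with a mean of at least 4 CPM. The counts centre on 0 (median 0.00), and 162 genes reach 0.5.

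The highest correlation was that of ENSRNOG00000055527, a gene at 9.42 CPM (r = 0.76, rho = 0.77). It was 0.83 in titled males and 0.82 in titled females (n = 12 each). It was 0.82 without oxytocin female 2 and 3, in which ENSRNOG00000018414 lay farthest from its median CPM, and 0.74 without oxytocin female 4 and oxytocin male 5, in which it lay farthest from its group mean. The latter pair left out gave 0.67, −0.71 and −0.62 for ENSRNOG00000054157, ENSRNOG00000006997 and ENSRNOG00000048164, which are described next. Its own treatment difference was near 0, at −0.01 on average (SE 0.06).

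ENSRNOG00000054157, at 31.8 CPM, came second (r = 0.76, rho = 0.75), with r = 0.88 in titled males and 0.73 in titled females (n = 12 each). It changed 1.05 log2 units per unit of ENSRNOG00000018414 (SE 0.21, edgeR adjusted p = 0.449). Its average treatment difference was −0.07 (SE 0.06). Without oxytocin female 5 it was the single gene called (slope 1.18, SE 0.19, edgeR adjusted p = 0.0337).

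Among genes that ran against it, the abundant ENSRNOG00000006997 (2077 CPM) had r = −0.76 and rho = −0.72, but r = −0.49 on the log2 TPM scale. Its slope was shallow, at −0.39 log2 units per unit (SE 0.10, edgeR adjusted p = 0.528). ENSRNOG00000048164, at 6.25 CPM, had r = −0.75 and rho = −0.60. Their average treatment differences were 0.04 (SE 0.02) and 0.03 (SE 0.06). None of these 4 genes therefore shared a treatment difference of the size seen in ENSRNOG00000018414.

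**Figure D5:**
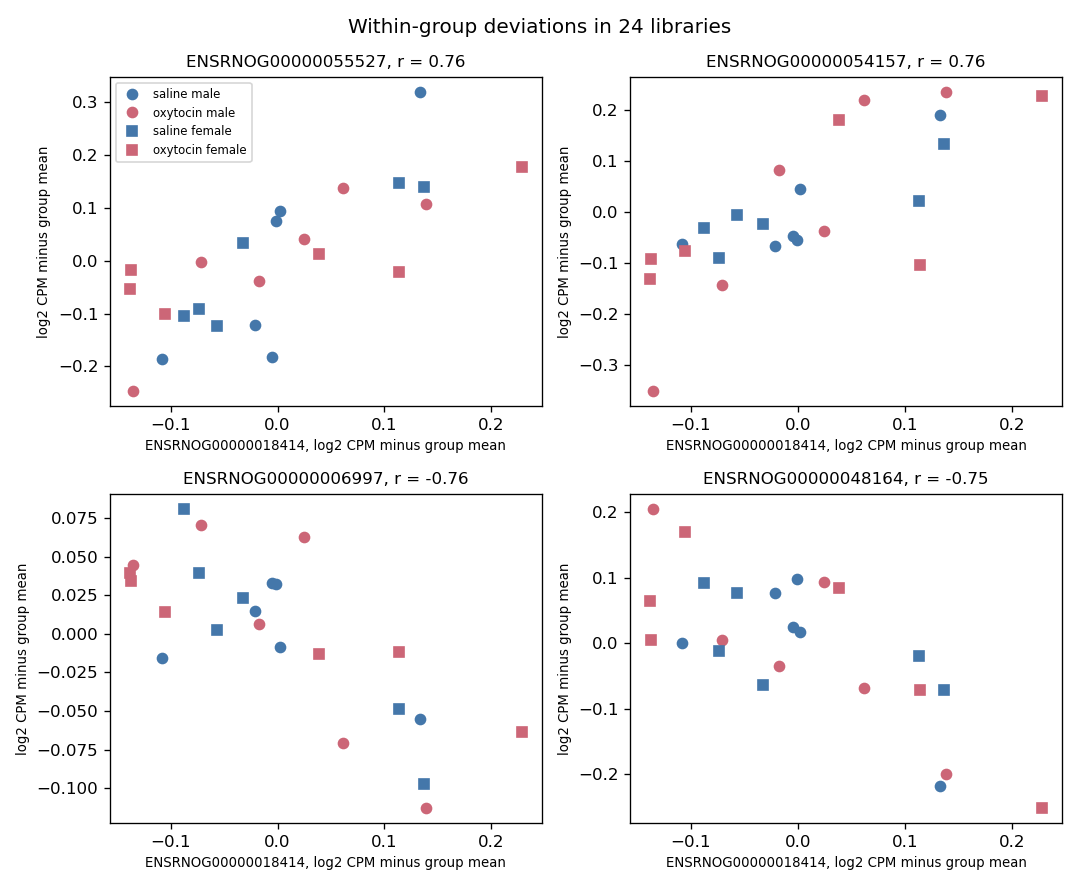
Deviation of log2 CPM from the group mean in ENSRNOG00000018414 (horizontal) against the same in the 2 most positively (top) and 2 most negatively correlated genes (bottom), in 24 libraries. Colours give the titled treatment and shapes the titled sex; r runs from 0.76 (top left) to −0.76 (bottom left).

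The genes next by p in each direction of the treatment difference were unlike each other in their within-group correlation. ENSRNOG00000018509, the next gene lower in titled oxytocin, stood sixth of 11581 by r, at r = 0.68 and rho = 0.66. Its r was 0.80 in titled females but 0.41 in titled males, and 0.77 in titled oxytocin but 0.47 in titled saline (n = 12 each). Whether these subsets differ was not tested. Its slope on ENSRNOG00000018414 was 1.08 (SE 0.27, edgeR adjusted p = 0.528). ENSRNOG00000013391, higher in titled oxytocin, showed r = 0.06 and rho = 0.15.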

How the data were processed

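Per the labels, total RNA with an integrity number above the submitters' limit was enriched by oligo-dT. The submitters' processing notes name bcl2fastq, DRAGEN and the build Rnor_6.0. Tool versions, annotation and strand setting: not given in the sources used here. The estimated counts deposited by the authors were rounded (7.42% to 8.38% of values per library were not whole). The deposited TPM values keep no depth and served for levels and as an alternative. Genes were kept by filterByExpr (minimum count 10, minimum total 15) and tested with edgeR 4.0.16 in R 4.3.3: TMM factors (0.971 to 1.03), 1 mean per group over 24 libraries, robust quasi-likelihood, Benjamini-Hochberg adjustment over 14930 genes, called at 0.05. Log2 CPM used a prior count of 2. DESeq2 1.42.0 and limma 3.58.1 were alternatives, and limma tested the deposited lengths. Libraries of a group differed by more than sampling noise in every pair (lowest chi-square per degree of freedom 4.85 over 60 pairs). The methods were tested on simulated data, but the outcome is not given here and nothing above rests on it. The gene, its comparisons and the rule for named genes (2 highest and 2 lowest r, plus the next gene in each direction) were chosen with earlier results of these data known. The tests of length were added after the tables were seen. Planned lists of cell type markers could not be used without gene names. Counting errors cover counting only, while the interval of the interaction comes from the edgeR fit.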

Additional observations from a re-analysis of the deposited data

Results flagged for a closer look

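Among 36 sets of 6 libraries (the genes named, the deposited length and the library totals), 1 held a library far from the other 5, where chance gives about 1.8. For ENSRNOG00000048164, saline male 6 stood at 5.07 CPM (78 reads), with the next library of its group at 5.92 CPM and the highest at 6.33 CPM. The same library had the highest level of ENSRNOG00000018414, 106 CPM. Without it the within-group correlation of the genes was −0.72.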

How the results depend on the processing

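The treatment differences of ENSRNOG00000018414 kept their sign and moved by less than the residual SD of 0.11 (log2) in every alternative run. With 1 library left out, they ranged from −0.48 to −0.40 in titled females, −0.27 to −0.22 in titled males and −0.36 to −0.32 on average. The gene had the smallest p for the average in 24 of 24 such fits and in 9 of 9 other settings. The gene was picked for its treatment difference in these same libraries, which favours a kept sign, size and rank. Nothing is therefore read from the signs, sizes or ranks of its treatment differences. By single titled sex in the fit of all 24 libraries, it ranked 1st by p in females and 62nd in males. When the 12 libraries of a titled sex were fitted alone, it ranked 2nd in females and 65th in males.

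The sex difference passed its limit in 3 of 9 other settings: with DESeq2 (0.19), with limma and sample weights (0.19) and with no filter on low counts (0.19). In the rest, the adjusted p lay between 0.0505 (edgeR, replicate number as a block) and 0.0936 (limma on log2 TPM). With 1 library left out the sex difference ranged from 0.18 (without saline male 6) to 0.22 (without oxytocin female 4). The cause was not tested. The interaction passed in none of its alternatives (adjusted p 0.465 to 0.898 with 1 library left out, 0.519 to 0.896 otherwise).

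Counts of genes that followed ENSRNOG00000018414 within groups were 0 in 8 of 8 settings and 0 to 1 with 1 library left out, the 1 without oxytocin female 5. The correlations of the 2 highest and 2 lowest genes kept their sign with Spearman's rho, on log2 TPM, without the 2 libraries farthest from the median and in each titled sex and treatment alone. They were not rerun with every single library left out. These genes were picked for their extreme r in the same libraries, which favours a kept sign, so nothing is read from it.

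With the replicate number as a block (replicate block), the differences were −0.43 in titled females, −0.25 in titled males and 0.20 between titled sexes (adjusted p = 0.0505). No clear pairing by number was seen. Same-numbered oxytocin and saline libraries correlated over 0.1 in 0 of 6 pairs in titled males and 2 of 6 in titled females. In each sex 1 of 6 correlated best with its own number. These values cannot show whether libraries share a dam. Thinned counts and limma on log2 TPM (pseudocount 0.5) were added once the values were known.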

Other observations

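Within-group r with ENSRNOG00000018414 was also read for the other genes called on the average treatment difference that had a mean of at least 4 CPM. Of 16 lower in titled oxytocin, 11 had r above 0 (median 0.15), beside 50.3% of all genes. Of 32 higher in titled oxytocin, 23 had r below 0 (median −0.08), beside 49.7% of all genes. From the other side, 38 of the 50 genes of highest r were lower in titled oxytocin on average, with a median log2 difference of −0.09, beside 48.3% and 0.00 over all 11581 genes. Among the 50 of lowest r, 26 were lower, with a median of −0.01. Both lists were picked on these libraries, and no test was made of them.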
